A study of Mus musculus with 9 samples.

Results

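Plasma membrane amino acid transporters are the carriers through which a cell takes up and exchanges the building blocks of its proteins. The members were 10 genes chosen by name, *Slc7a1*, *Slc7a2*, *Slc7a5*, *Slc7a6*, *Slc7a7*, *Slc7a8*, *Slc38a1*, *Slc38a2*, *Slc1a4* and *Slc1a5*, and all 10 had a row among the 13708 genes of the deposited table. They were measured by bulk RNA-seq in macrophages sorted from fetal livers of E15.5 mouse embryos as CD45+ cells with high F4/80 and low CD11b. The embryos were *Mrc1Cre Xpr1fl/fl* (5 samples) or *Xpr1fl/fl* (4 samples, the controls), and both genotypes carry the loxP-flanked alleles of *Xpr1*, the phosphate exporter. Cre is expressed from the *Mrc1* locus, which encodes CD206, so that *Xpr1* is deleted in CD206+ cells, among them sinusoidal endothelial cells as well as macrophages. The sort took Tim4hi and Tim4lo macrophages together. Whether a sample came from 1 embryo or from several is not given in the sources used here, and the p-values measure only the spread between these samples.

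Cells import cationic amino acids such as arginine through *Slc7a1* (CAT1) and *Slc7a2* (CAT2). *Slc7a5* (LAT1), *Slc7a8* (LAT2), *Slc7a6* (y+LAT2) and *Slc7a7* (y+LAT1) are light chains that reach the membrane with the heavy chain *Slc3a2* and exchange one amino acid for another. *Slc38a1* and *Slc38a2* draw in glutamine, alanine and other small neutral amino acids with sodium, and *Slc1a4* (ASCT1) and *Slc1a5* (ASCT2) exchange serine, alanine or glutamine. Macrophages that digest erythroid nuclei and senescent cells release amino acids in their lysosomes, and in macrophages arginine feeds both nitric oxide synthase and arginase. *Slc7a7* is the gene mutated in lysinuric protein intolerance, a disease of arginine and lysine transport in which macrophages are affected.

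Of the 10 transporters, 4 were higher in *Mrc1Cre Xpr1fl/fl* macrophages, 3 were lower and 3 did not pass the test. The risers were *Slc7a6*, *Slc38a2*, *Slc7a1* and *Slc1a4*, by 1.84, 1.66, 1.61 and 1.41 times in the mean normalized count. *Slc7a2*, *Slc1a5* and *Slc7a8* were lower, at 0.659, 0.678 and 0.805 times the control mean. Within each class, a transporter that changed stood beside one that did not pass the test or that changed the other way. Values are gene counts that the authors divided by normalization factors, and limma was run on log2(normalized count + 1), with Benjamini-Hochberg adjustment over all 13594 genes that passed a filter on low values. All 10 members passed that filter. Among all genes tested, 21.5% were called higher and 21.6% lower (43.1% in either direction), so a call on its own was common in these samples. After scaling to the 75th percentile, which moved the split of all calls from 2926 higher and 2939 lower to 1999 and 3707, 3 members were higher and 3 lower. For 3 of the higher and 2 of the lower members, no sample of one genotype lay within the range of the other, as was the case for 16.6% and 17.5% of all genes tested in these directions (34.1% in either).

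*Xpr1* itself had 1162.1 ± 84.9 normalized counts in *Mrc1Cre Xpr1fl/fl* samples and 1981.6 ± 204.7 in controls (mean ± SD of 5 and 4 samples), with no overlap. The table's columns begin with 1 of 3 dates, whose meaning is not given in the sources used here. *Mrc1Cre Xpr1fl/fl* sample 5 and *Xpr1fl/fl* samples 1 to 3 share the earliest, *Xpr1fl/fl* sample 4 has the middle one, and *Mrc1Cre Xpr1fl/fl* samples 1 to 4 have the latest. A fit with the date as a term therefore rests on *Mrc1Cre Xpr1fl/fl* sample 5 against the controls of its date. It called 4.24% of all genes higher and 4.54% lower (8.78% in all), and 1 member in each direction, *Slc38a2* and *Slc7a2*. Of the 14 macrophage markers as a whole, 2 were higher (*Ctss* and *Itgam*) and 6 lower (*Marco*, *Lyz2*, *Cd5l*, *C1qa*, *C1qc* and *Aif1*). The log2 fold change was −1.73 for *Marco*, −1.11 for *Lyz2* and 0.42 for *Itgam*. Among those that did not pass the test, *Adgre1*, *Csf1r* and *Mertk* were abundant in both genotypes. *Adgre1* had 46581.0 normalized counts in *Mrc1Cre Xpr1fl/fl* samples and 46008.1 in controls on average. The summed level of the 14 was 370457.2 to 423598.4 in *Mrc1Cre Xpr1fl/fl* samples and 446907.3 to 585996.9 in controls. Of 10 monocyte markers, 2 were higher and 4 lower (summed level 10808.5 to 14219.3 and 8989.9 to 12155.0), and of 10 neutrophil and granule markers, 4 were lower (5066.4 to 18271.0 and 9180.2 to 54702.0). The 19 erythroid markers with a row all fell, from a summed level of 426506.7 to 672115.8 in controls to 108316.2 to 323530.8 in *Mrc1Cre Xpr1fl/fl* samples. All 14 hepatocyte markers fell as well, from summed levels of 61799.4 to 107672.5 to levels of 36519.0 to 47223.9. Of 13 endothelial markers, 12 fell, and the summed level of the 13 went from 27416.6 to 35925.0 to 16029.8 to 21298.3. The largest term of that sum was *Cdh5*, with a mean of 18279.3 normalized counts in controls and 10682.7 in *Mrc1Cre Xpr1fl/fl* samples. The paper counts *Cdh5* among the identity genes of fetal liver macrophages and Kupffer cells, so this sum is not endothelial alone. No marker with a row was listed at 0 in any sample. The part of these markers in the results on the transporters was not tested, and in bulk samples fewer cells of a type and less RNA per cell cannot be told apart.

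**Figure D1:**
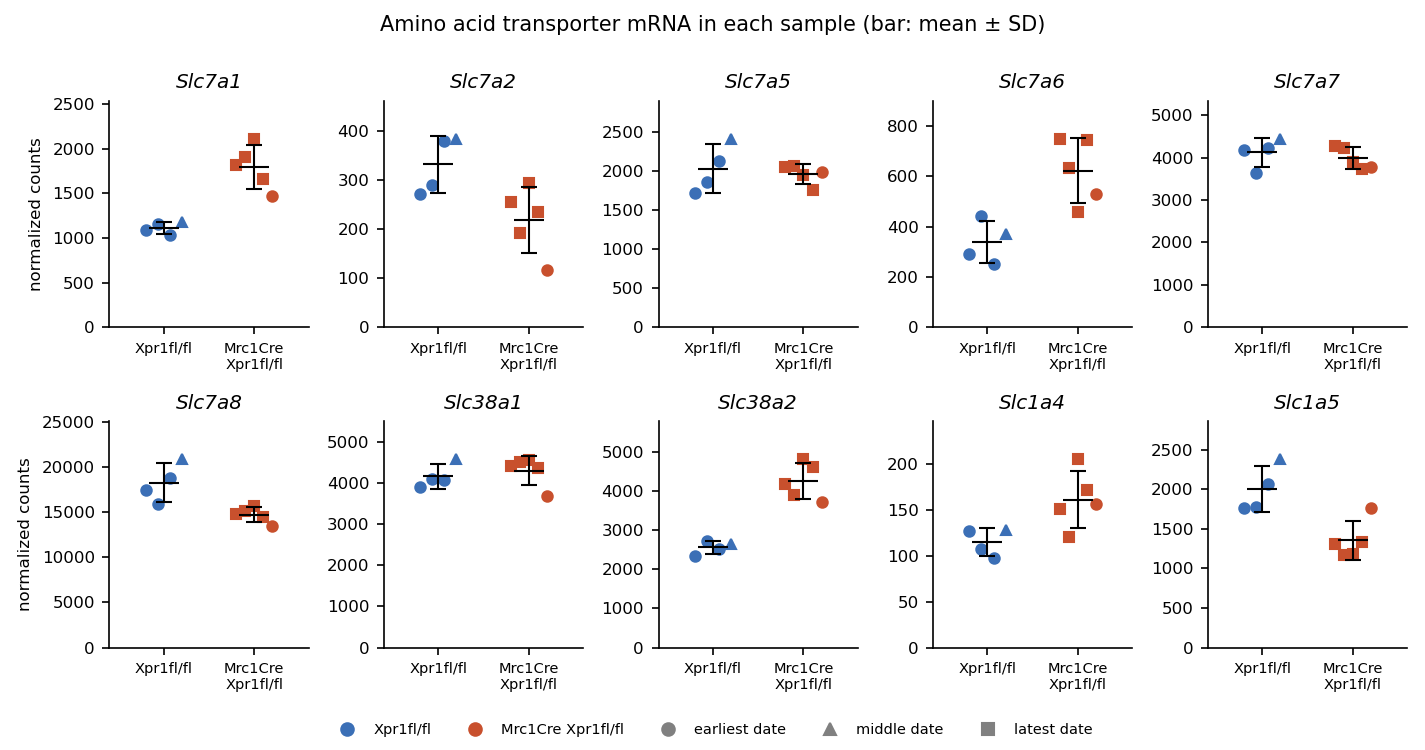
Normalized counts of the 10 transporters in each of the 9 samples, on linear axes that start at 0. Points are samples, colored by genotype and shaped by the date in the column name, and bars give the mean ± SD. *Slc7a1*, *Slc7a6* and *Slc38a2* are higher in every *Mrc1Cre Xpr1fl/fl* sample than in any control, and *Slc7a8* and *Slc1a5* are lower, although *Slc1a5* in *Mrc1Cre Xpr1fl/fl* sample 5 (1765.1) all but reaches the lowest control (1766.0).

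The start regions of the 4 transporters that rose are shown because these genes were the members called higher. The sequences are RefSeq windows of GRCm38.p6 that hold 250 bases before the gene start, and a window was found for 6 of the 10 members (*Slc7a1*, *Slc7a6*, *Slc7a7*, *Slc7a8*, *Slc38a2* and *Slc1a4*). Capitals mark every match, on either strand, to the core of the amino acid response element (TGATGNAA), through which ATF4 and C/EBP factors act, or of the antioxidant response element (TGACNNNGC), the site of NRF2. These motifs do not overlap each other in the windows shown. Where a gene has several windows the most upstream is given, and a window is carried past the start only to complete a match.
Slc38a2: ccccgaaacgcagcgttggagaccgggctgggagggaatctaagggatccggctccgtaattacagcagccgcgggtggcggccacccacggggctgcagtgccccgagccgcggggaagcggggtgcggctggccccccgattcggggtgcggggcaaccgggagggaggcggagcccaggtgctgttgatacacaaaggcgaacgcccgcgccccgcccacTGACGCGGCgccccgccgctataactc
Slc7a1: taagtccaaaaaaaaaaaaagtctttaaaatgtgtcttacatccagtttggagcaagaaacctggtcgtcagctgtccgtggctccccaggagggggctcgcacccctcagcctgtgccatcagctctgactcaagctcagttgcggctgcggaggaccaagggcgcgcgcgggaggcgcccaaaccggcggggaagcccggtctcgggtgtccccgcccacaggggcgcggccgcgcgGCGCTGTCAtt
Slc7a6: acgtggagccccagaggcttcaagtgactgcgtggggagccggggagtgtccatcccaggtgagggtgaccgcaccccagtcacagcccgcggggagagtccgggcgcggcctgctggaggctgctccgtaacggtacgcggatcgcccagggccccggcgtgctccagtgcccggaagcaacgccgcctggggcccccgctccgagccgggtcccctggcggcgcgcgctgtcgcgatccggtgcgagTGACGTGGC
Slc1a4: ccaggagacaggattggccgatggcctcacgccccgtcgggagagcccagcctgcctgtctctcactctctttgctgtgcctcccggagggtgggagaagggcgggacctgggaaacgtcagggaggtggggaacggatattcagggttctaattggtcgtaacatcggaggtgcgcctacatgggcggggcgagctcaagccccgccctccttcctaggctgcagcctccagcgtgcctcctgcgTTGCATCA
The windows lie on the minus strand at chr15:96699729-96699978 (*Slc38a2*), chr5:148399905-148400154 (*Slc7a1*) and chr11:20332710-20332963 (*Slc1a4*), and on the plus strand at chr8:106168604-106168861 (*Slc7a6*), all in GRCm38.p6. TGACNNNGC stood in windows of *Slc38a2*, *Slc7a1* and *Slc7a6* and in 12.4% of all 32851 RefSeq windows, each of which also holds the 50 bases after the start. Its first base lay 27 bases before the start in *Slc38a2*, 11 bases before it in *Slc7a1*, on the minus strand, and 1 base before it in *Slc7a6*.
TGATGNAA stood in windows of *Slc1a4*, 4 bases before the start on the minus strand, and of *Slc7a7*, which did not pass the test, and in 3.97% of all windows. Of the other motifs searched on both strands, CACGTG (7.15% of all windows) and TGACGTCA (1.79%) had no match in any of the 6 members. CCAAT (37.4% of windows) was found in *Slc7a1* and *Slc1a4*, GGGCGG (35.7%) in all 6 members and TATAAA (13.6%) in *Slc7a1*. Some members have several windows (5 for *Slc7a7*, 2 each for *Slc7a1* and *Slc7a6*), whereas the shares are of windows and not of genes. A match named here can lie in a window, or in the 50 bases after the start, that is not printed. A match in a window of this length is a description of the letters and not a mapped site. Sequence outside the windows was not searched, so a motif without a match here can still lie elsewhere in or near the gene.

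The cationic transporters moved in opposite directions. *Slc7a1* (ENSMUSG00000041313, chromosome 5 of GRCm39, 148264220 to 148336848) had 1819.6, 1903.1, 2111.7, 1660.2 and 1465.5 normalized counts in *Mrc1Cre Xpr1fl/fl* samples 1 to 5 and 1094.5, 1159.8, 1031.8 and 1177.1 in *Xpr1fl/fl* samples 1 to 4. Every *Mrc1Cre Xpr1fl/fl* sample lay above every control, and sample 5 was the lowest of them. This was a log2 fold change of 0.67 (SE 0.10, adjusted p by limma = 0.000261). A date term brought it to 0.42 and the call was lost (adjusted p by limma = 0.0732, the highest over all alternatives, where the lowest was 4.62e-05).
*Slc7a2* (ENSMUSG00000031596, chromosome 8, 41315431 to 41375345), a carrier that macrophages use to supply arginine when activated, had 255.5, 191.8, 294.0, 235.8 and 116.2 normalized counts in *Mrc1Cre Xpr1fl/fl* samples 1 to 5. In the controls it had 272.6, 290.7, 380.1 and 384.5, so that the genotypes overlapped at *Mrc1Cre Xpr1fl/fl* sample 3, and sample 5 was the lowest of all. Its log2 fold change of −0.65 (SE 0.24) passed narrowly (adjusted p by limma = 0.0443). The call was lost without *Mrc1Cre Xpr1fl/fl* sample 2 or 4 (adjusted p by limma = 0.0828 and 0.0563) and without *Xpr1fl/fl* sample 2, 3 or 4 (adjusted p by limma = 0.0566, 0.112 and 0.105). Without *Mrc1Cre Xpr1fl/fl* sample 5 the log2 fold change was −0.44, whereas it was −1.41 with the date as a term (adjusted p by limma = 0.0117, the lowest over all alternatives, where the highest was 0.112).

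Among the light chains, *Slc7a6* rose, *Slc7a8* fell, and *Slc7a5* and *Slc7a7* did not pass the test. *Slc7a6* (ENSMUSG00000031904, chromosome 8, 106895139 to 106925346), which exchanges cationic for neutral amino acids in many cell types, had 749.6, 631.2, 457.0, 742.6 and 531.7 normalized counts in *Mrc1Cre Xpr1fl/fl* samples and 293.1, 440.4, 249.7 and 369.4 in controls. The genotypes did not overlap, but the spread was wide in both, and *Mrc1Cre Xpr1fl/fl* sample 3 lay close to *Xpr1fl/fl* sample 2. At 0.89, the log2 fold change was the largest rise among the members (SE 0.18, adjusted p by limma = 0.0029). It was 0.74 with the date as a term, where it did not pass (adjusted p by limma = 0.185, the highest over all alternatives, with 0.000853 the lowest).
*Slc7a7* (ENSMUSG00000000958, chromosome 14, 54606895 to 54655603), the main partner of *Slc3a2* for exporting arginine from macrophages, ranged from 3734.2 to 4278.5 normalized counts in *Mrc1Cre Xpr1fl/fl* samples (median 3897.4) and from 3645.4 to 4446.9 in controls. These ranges overlapped almost entirely, and the log2 fold change was −0.05 (SE 0.07, adjusted p by limma = 0.587). Quantile normalization alone brought it past the threshold, at −0.17 (adjusted p by limma = 0.0472, the lowest over all alternatives, with 0.908 the highest).
*Slc7a5* (ENSMUSG00000040010, chromosome 8, 122607884 to 122634433), the carrier of leucine and other large neutral amino acids in dividing cells, had 1757.0 to 2063.6 normalized counts in *Mrc1Cre Xpr1fl/fl* samples and 1709.9 to 2410.1 in controls (log2 fold change −0.04, SE 0.09, adjusted p by limma = 0.755). Its sign turned to 0.07 with the date as a term and to 0.05 without *Xpr1fl/fl* sample 4, and it passed under none of the alternatives.
*Slc7a8* (ENSMUSG00000022180, chromosome 14, 54959630 to 55019649), which carries neutral amino acids over a broad range of sizes, was the most abundant member. It had 14774.3, 15088.8, 15644.8, 14444.1 and 13477.3 normalized counts in *Mrc1Cre Xpr1fl/fl* samples and 17451.2, 15843.2, 18806.8 and 20863.9 in controls. The genotypes did not overlap, although *Mrc1Cre Xpr1fl/fl* sample 3 and *Xpr1fl/fl* sample 2 were close. On the log2 scale the difference was −0.31 (SE 0.08, adjusted p by limma = 0.00773). It was −0.36 with the date as a term and just missed the threshold (adjusted p by limma = 0.0509, the highest over all alternatives, with 0.00136 the lowest).
The heavy chain *Slc3a2* had 10628.2, 9689.1, 11612.4, 10678.6 and 10538.4 normalized counts in *Mrc1Cre Xpr1fl/fl* samples and 12958.5, 10749.2, 12291.8 and 13287.1 in controls. It was lower by a small amount, and the genotypes overlapped (log2 fold change −0.21, SE 0.07, adjusted p by limma = 0.0316). The call was lost without *Mrc1Cre Xpr1fl/fl* sample 1, 2 or 4 (adjusted p by limma = 0.0568, 0.074 and 0.0533), without *Xpr1fl/fl* sample 1, 3 or 4 (adjusted p by limma = 0.0811, 0.0657 and 0.0885), with array weights (−0.19, 0.05) and with the date as a term, where the adjusted p of 0.373 was the highest over all alternatives and 0.00426 the lowest.

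The sodium-coupled carriers *Slc38a1* and *Slc38a2* differed in response although they are neighbors on the minus strand of chromosome 15, with a gap of 43.4 kb between them. *Slc38a2* (ENSMUSG00000022462, 96585266 to 96597894), a carrier of small neutral amino acids known to be induced when cells lack amino acids, had 4201.7, 3911.6, 4830.9, 4615.8 and 3727.7 normalized counts in *Mrc1Cre Xpr1fl/fl* samples 1 to 5. In the controls it had 2341.3, 2729.6, 2531.2 and 2656.6, and the lowest *Mrc1Cre Xpr1fl/fl* sample stood well above the highest control. Its log2 fold change of 0.73 (SE 0.08) had the smallest adjusted p of the members (6.11e-05, limma). The log2 fold change lay between 0.68 and 0.77 whichever sample was omitted and was 0.56 with the date as a term (adjusted p by limma = 0.026, the highest over all alternatives, with 2.52e-05 the lowest).
*Slc38a1* (ENSMUSG00000023169, 96469298 to 96541851), a glutamine importer, had 4415.3, 4509.6, 4574.6, 4360.4 and 3688.8 normalized counts in *Mrc1Cre Xpr1fl/fl* samples and 3905.3 to 4590.8 in controls. Sample 5 lay below all controls, whereas samples 1 to 4 lay in the upper part of their range. The log2 fold change was 0.05 (SE 0.07, adjusted p by limma = 0.62), and its sign turned to −0.03 after scaling to the 75th percentile, −0.07 after quantile normalization and −0.12 with the date as a term. It passed under none of the alternatives.

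The exchangers *Slc1a4* and *Slc1a5* also moved apart. *Slc1a4* (ENSMUSG00000020142, chromosome 11, 20252180 to 20282774), a carrier of serine, alanine, threonine and cysteine, was among the scarce members, with 151.6, 120.6, 206.0, 172.2 and 156.7 normalized counts in *Mrc1Cre Xpr1fl/fl* samples and 127.1, 107.1, 97.3 and 128.0 in controls. The genotypes overlapped because *Mrc1Cre Xpr1fl/fl* sample 2 lay between the controls. Its log2 fold change was 0.48 (SE 0.16, adjusted p by limma = 0.0341). The call was lost without *Mrc1Cre Xpr1fl/fl* sample 1, 3 or 4 (adjusted p by limma = 0.0519, 0.0772 and 0.07), without *Xpr1fl/fl* sample 2 or 3 (0.0761 and 0.0975, limma adjusted p), after scaling to the 75th percentile (0.0704) and with the date as a term, where the log2 fold change was 0.51 and the limma adjusted p of 0.313 the highest over all alternatives (lowest 0.0035).
*Slc1a5* (ENSMUSG00000001918, chromosome 7, 16515265 to 16532731), a glutamine exchanger, had 1311.1, 1163.8, 1185.1, 1338.5 and 1765.1 normalized counts in *Mrc1Cre Xpr1fl/fl* samples 1 to 5 and 1766.0, 1776.1, 2062.7 and 2381.4 in controls. Samples 1 to 4 were far below the controls, whereas sample 5 was level with *Xpr1fl/fl* samples 1 and 2, which share its date. Over all samples the log2 fold change was −0.57 (SE 0.13, adjusted p by limma = 0.00421), and it was −0.67 without *Mrc1Cre Xpr1fl/fl* sample 5. Under the date term it was −0.08 (adjusted p by limma = 0.727, the highest over all alternatives, with 0.000327 the lowest). The summed level of the erythroid markers in sample 5 was 323530.8 against 108316.2 to 171252.3 in samples 1 to 4 of its genotype, and its part in the *Slc1a5* result was not tested.

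**Figure D2:**
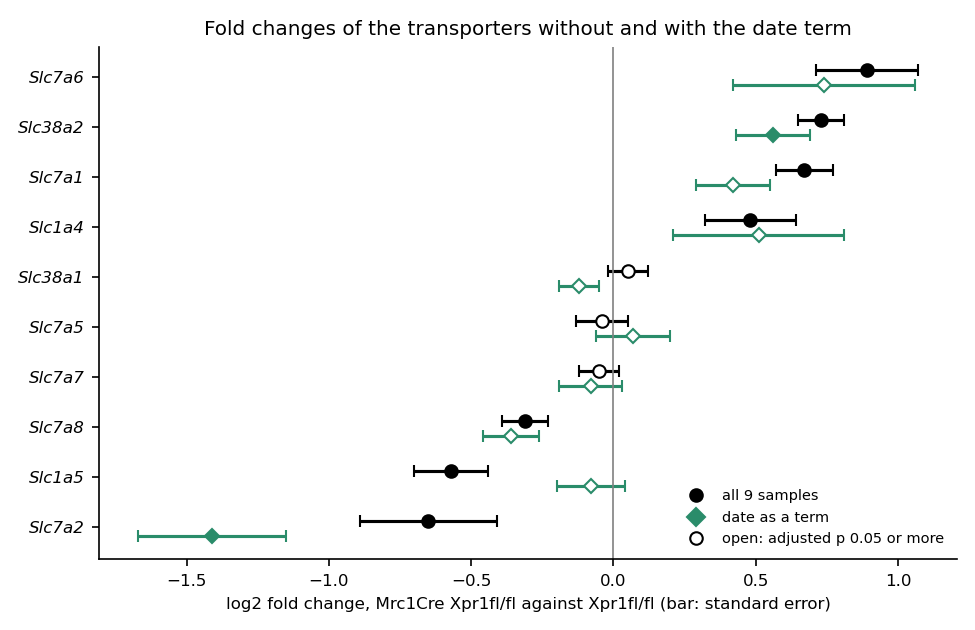
Log2 fold change of each transporter in *Mrc1Cre Xpr1fl/fl* against Xpr1fl/fl macrophages, with its standard error. Black circles are the fit on all 9 samples and green diamonds the fit with the date as a term, and filled symbols have an adjusted p under 0.05. *Slc38a2* and *Slc7a2* pass in both fits, and *Slc1a5* goes from −0.57 to −0.08.

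Ratios between transporters of the same class do not depend on a factor that scales a whole sample. Normalization factors that differ between genes of a sample would not cancel in them. All 5 pairs compared differed between the genotypes (two-sided exact permutation test of the genotype labels, where 0.00794 is the smallest p possible, adjusted over the 5 pairs). Every pair holds a member called above, so these results in part restate those calls. Among all genes tested, 43.1% were called in either direction, and the share of other gene pairs that would pass was not computed. The cationic pair *Slc7a1*/*Slc7a2* showed the largest shift. Its log2 ratio was 2.83, 3.30, 2.84, 2.81 and 3.65 in *Mrc1Cre Xpr1fl/fl* samples 1 to 5 and 2.00, 1.99, 1.44 and 1.61 in controls, a difference of 1.32 (SE 0.22, exact permutation p = 0.00794, adjusted 0.0132). All 5 *Mrc1Cre Xpr1fl/fl* samples lay above all 4 controls.
The pair *Slc38a1*/*Slc38a2* was the steadiest. Its log2 ratio was 0.74, 0.59, 0.68 and 0.79 in controls and 0.07, 0.21, −0.08, −0.08 and −0.02 in *Mrc1Cre Xpr1fl/fl* samples. The difference was −0.68 (SE 0.07, exact permutation p = 0.00794, adjusted 0.0132), and it was also −0.68 with the date as a term. These ratios are of counts not divided by transcript length, so their sign does not rank the 2 genes. Per kb of transcript, *Slc38a1* and *Slc38a2* had means of 545 and 547 in controls and of 564 and 909 in *Mrc1Cre Xpr1fl/fl* samples.
For *Slc1a4*/*Slc1a5* the log2 ratio ranged from −3.49 to −2.52 in *Mrc1Cre Xpr1fl/fl* samples and from −4.39 to −3.79 in controls, without overlap (difference 1.04, SE 0.21, exact permutation p = 0.00794, adjusted 0.0132). In a linear model of the ratio with the date as a term, the difference was 0.59 and did not pass. For *Slc7a5*/*Slc7a8*, the neutral light chains, it ranged from −3.04 to −2.76 and from −3.35 to −3.09, also without overlap (difference 0.27, SE 0.08, exact permutation p = 0.0159, adjusted 0.0159), and the difference was 0.43 with the date as a term. It was 0.23 with the replicate number as a block, where it did not pass (adjusted p = 0.09).
For *Slc7a6*/*Slc7a7* the mean log2 ratio was −2.70 in *Mrc1Cre Xpr1fl/fl* samples and −3.64 in controls, and the genotypes overlapped at *Mrc1Cre Xpr1fl/fl* sample 3 (−3.09) and *Xpr1fl/fl* sample 2 (−3.05). The difference was 0.93 (SE 0.26, exact permutation p = 0.0159, adjusted 0.0159). It no longer passed without *Mrc1Cre Xpr1fl/fl* sample 1, 2, 4 or 5 (0.89, 0.95, 0.84 and 0.97, each with an adjusted exact permutation p of 0.0571). With a sample left out there are fewer splits and the smallest p possible is larger, but the other pairs kept their calls in all 9 such tests. The *Slc7a6*/*Slc7a7* call was kept without *Mrc1Cre Xpr1fl/fl* sample 3 and without any single control. Its difference lay between 0.79 and 1.13 whichever sample was omitted. With the date as a term the difference was 0.82 and did not pass.

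**Figure D3:**
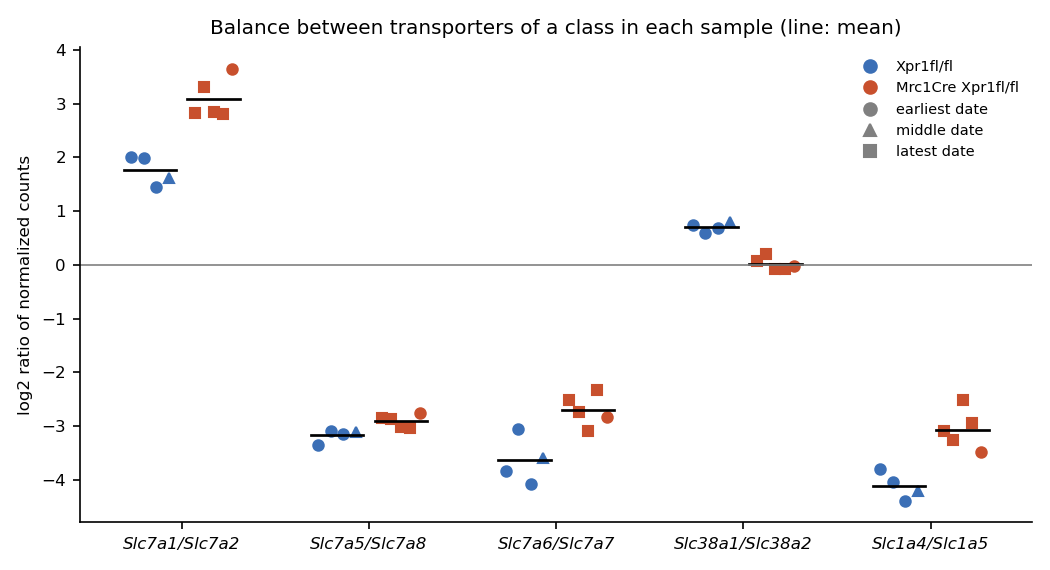
Log2 ratio of the normalized counts of 2 transporters of a class in each of the 9 samples, with lines at the group means. Colors give the genotype and shapes the date in the column name. The points of the genotypes separate for every pair except *Slc7a6*/*Slc7a7*, and the *Slc38a1*/*Slc38a2* ratio drops from 0.59 to 0.79 in controls to between −0.08 and 0.21.

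Levels of different genes were compared as normalized counts per kb of the longest protein-coding transcript. On this scale *Slc7a8* led in controls with 3640.2 ± 424 (SD, n = 4) and took 48.5% ± 1.36 of the summed level of the 10 members. *Slc7a7* followed with 1162.6 ± 96.1, and both stood apart from the next gene in every control. *Slc1a5* (722 ± 105), *Slc7a5* (577 ± 87.7), *Slc38a2* (547 ± 36.3) and *Slc38a1* (545 ± 38.7) formed a middle group in which each gene's range overlapped with that of the next. *Slc7a1* (150 ± 8.93), *Slc7a6* (85.1 ± 21.2), *Slc7a2* (39.7 ± 7.01) and *Slc1a4* (28.8 ± 3.81) came last in that order, without overlap between neighbors in the controls. The same genes held the first, second and last 6 places with the length of all merged exons, and only *Slc1a5* and *Slc7a5* changed places.
In *Mrc1Cre Xpr1fl/fl* samples *Slc7a8* still led with 2930.7 ± 161 per kb (SD, n = 5), but its share of the members' summed level was 41.6% ± 0.872. *Slc38a2* had moved from the fifth to the third place with 909 ± 99 per kb, and its share had gone from 7.35% ± 0.826 in controls to 12.9% ± 1.15. *Slc1a5* had moved from the third to the sixth place with 489 ± 87.8 per kb, a share of 7% ± 1.55 against 9.6% ± 0.494. These shares restate the changes given above and were not tested.
The summed level of the 10 members was 6619.7 to 7316.5 per kb in *Mrc1Cre Xpr1fl/fl* samples (median 7104.3) and 6806.5 to 8459.2 in controls (median 7361.9), so the ranges overlapped. The 4 light chains together had 1.3 to 1.58 times the per kb level of *Slc3a2* in *Mrc1Cre Xpr1fl/fl* samples and 1.25 to 1.44 times in controls, again with overlap.

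**Figure D4:**
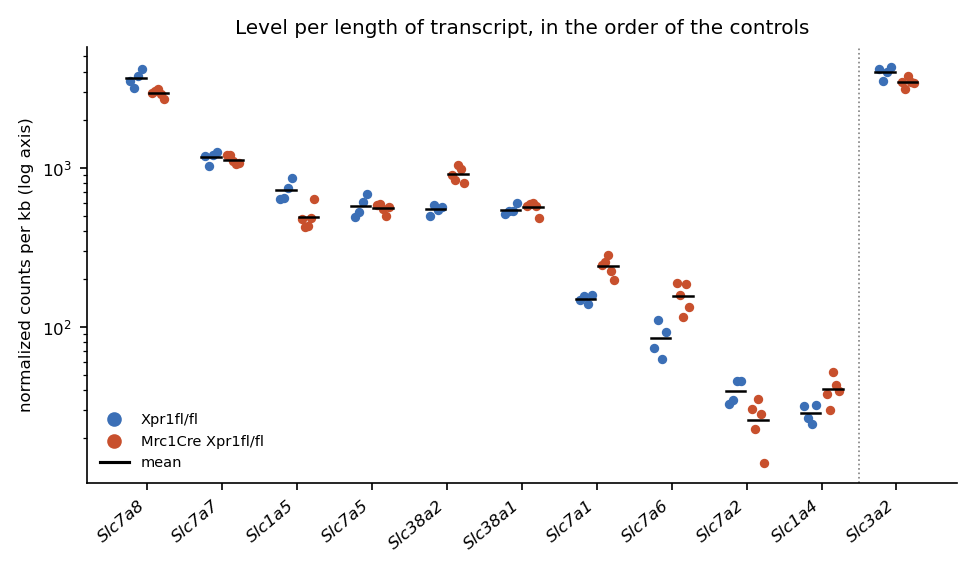
Normalized counts per kb of the longest protein-coding transcript, on a log axis, for the 10 transporters in the order of their control means and for the heavy chain *Slc3a2*. Points are samples and lines are means. *Slc7a8* lies highest among the transporters at 3640.2 per kb in controls, and *Slc1a4* lowest at 28.8.

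By the likeness of log2 values across the 9 samples, the genes nearest to *Slc7a6*, the member with the largest rise, were *Zfp53* (Pearson r = 0.983), *Naa15* (0.962) and *Prelid1* (0.957), among 11393 genes whose mean reached 50 normalized counts. Nearest to *Slc7a2*, the member with the largest fall, were *Igf2r* (0.964), *Dip2c* (0.963) and *Bmpr1a* (0.959). The points are the same 9 samples in 2 genotypes, so these values describe these libraries only.

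Other carriers of amino acids at the plasma membrane changed in both directions. Of 35 such genes listed, 18 had a row, of which 3 were higher, 9 lower and 6 not past the threshold (21.5% and 21.6% of all genes tested were higher and lower), with a median log2 fold change of −0.91 against 0.00 over all genes tested. *Slc7a11*, the light chain that imports cystine, was far higher, at 476.7 ± 133.1 normalized counts in *Mrc1Cre Xpr1fl/fl* samples against 20.4 ± 11.0 in controls (mean ± SD of 5 and 4 samples). *Slc6a6*, the taurine carrier, rose by a log2 fold change of 0.39. *Slc16a10*, a carrier of aromatic amino acids, was at 0.17 (adjusted p by limma = 0.0345), and its call was lost without *Mrc1Cre Xpr1fl/fl* sample 1, 2 or 3 (adjusted p by limma = 0.0616, 0.0704 and 0.0819), without *Xpr1fl/fl* sample 1 or 2 (0.0629 and 0.0978), under both other scalings and with the date as a term (0.491, the highest over all alternatives, with 0.0226 the lowest). *Slc1a2*, a glutamate carrier, went from 622.4 ± 152.5 to 106.2 ± 22.4 normalized counts, a log2 fold change of −2.53 (adjusted p by limma = 8.34e-06). On the log2 scale the difference was −2.13 for *Slc6a20a*, which carries proline, −1.93 for *Slc38a5*, a glutamine carrier, and −1.79 for *Slc43a1*, a carrier of large neutral amino acids.
The 9 lower genes also included *Slc6a9*, the glycine carrier that erythroid cells use for heme synthesis, *Slc38a4* and *Slc38a3*, known from hepatocytes, *Slc6a13* and the heavy chain *Slc3a2*. The erythroid and hepatocyte markers given above were all lower as well. Whether these carriers followed those markers from sample to sample, and the part of the markers in this count, was not tested. With the date as a term, 1 gene of the list was higher, *Slc7a11*, and 3 were lower, against 4.24% and 4.54% of all genes. The fold changes of the leading lower genes shrank in that fit, to −1.96 for *Slc1a2*, which still passed, as did *Slc38a5*, and to −1.18 for *Slc6a20a* and −0.91 for *Slc43a1*, which did not (adjusted p by limma = 0.254 and 0.066, the highest over their alternatives, with 0.000346 and 4.13e-06 the lowest). *Slc6a6*, at 0.26, did not pass there either.

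Of 12 carriers of the lysosome, 4 were higher, 1 lower and 7 not past the threshold, with a median log2 fold change of 0.08 (21.5% and 21.6% of all genes were higher and lower). The log2 fold change was 0.73 for *Slc15a4* and 0.38 for *Slc15a3*, which export histidine and peptides, 0.33 for *Mfsd12*, which carries cysteine, and 0.29 for *Slc38a7*, which exports glutamine. *Slc36a4* was the lower gene (−0.24, adjusted p by limma = 0.0431), and its call was lost without *Mrc1Cre Xpr1fl/fl* sample 2, 4 or 5 or *Xpr1fl/fl* sample 2, 3 or 4 (adjusted p by limma up to 0.125). That of *Slc38a7* was lost without *Xpr1fl/fl* sample 3 (adjusted p by limma = 0.0563, with alternatives from 0.00172 to 0.148). Without *Mrc1Cre Xpr1fl/fl* sample 2 or 4 or *Xpr1fl/fl* sample 2, 3 or 4 the limma fits called 0 genes of this list lower (at an unadjusted p under 0.05, 1, 1, 2, 1 and 0 were). With the date as a term 1 was higher, *Slc15a3* at 0.40, and 0 lower (1 at an unadjusted p under 0.05), against 4.24% and 4.54% of all genes tested.
Of 9 mitochondrial carriers with a row, *Slc25a22* (glutamate, log2 fold change 0.46) and *Slc25a12* (aspartate and glutamate, 0.25) were higher. *Slc25a38*, which supplies glycine for heme synthesis, was lower (−0.58). These were 2 higher and 1 lower of 9, against 21.5% and 21.6% of all genes tested. Under the date term *Slc25a38* was at −0.10, and *Slc25a22* was the 1 gene of this list called higher. That fit called 4.24% of all genes tested higher and 4.54% lower.

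Genes of the amino acid response, the program that ATF4 switches on when amino acids are short, went both ways. Of 25 genes, 12 were higher, 6 lower and 7 not past the threshold (median log2 fold change 0.18). Among all genes tested, 21.5% were higher and 21.6% lower. *Trib3*, a pseudokinase that restrains ATF4, had 36.9 ± 10.6 normalized counts in controls and 137.6 ± 48.2 in *Mrc1Cre Xpr1fl/fl* samples, or 1.85 on the log2 scale. With the date as a term its log2 fold change was 1.73, just short of passing. *Nupr1*, a stress-induced chromatin protein, had a log2 fold change of 1.59, and *Stc2* of 1.06, which became 0.41 with the date as a term and did not pass (adjusted p by limma = 0.626, the highest over its alternatives, with 0.00265 the lowest). *Chac1*, which degrades glutathione, was scarce, at 17.7 ± 2.1 normalized counts against 9.1 ± 4.4 in controls (log2 fold change 0.99, adjusted p by limma = 0.0352). Its call was kept without *Mrc1Cre Xpr1fl/fl* sample 5 or *Xpr1fl/fl* sample 4, but was lost without any 1 of the other 7 samples (adjusted p by limma from 0.0552 to 0.0921), with the replicate block (0.0588) and with the date as a term (0.243, the highest over its alternatives, with 0.00854 the lowest). *Asns*, which makes asparagine, went from 1633.9 ± 122.1 to 1098.7 ± 148.4 normalized counts (log2 fold change −0.58). *Cth*, which makes cysteine, had a log2 fold change of −1.02 and *Pycr1*, which makes proline, of −0.91, and it was −0.62 for *Ppp1r15a*, which reverses the stress signal on translation. The *Pycr1* call was lost without *Xpr1fl/fl* sample 3 (adjusted p by limma = 0.0675, with alternatives from 0.0106 to 0.286). The mRNA of *Atf4* itself had a log2 fold change of 0.01 (SE 0.07, adjusted p by limma = 0.884), although its control is known to lie mostly in translation. Under the date term, 3 genes of the list were higher and 0 lower (3 lower at an unadjusted p under 0.05), against 4.24% and 4.54% of all genes tested. The higher genes were *Nupr1* (log2 fold change 1.49), *Atf5* (0.91) and *Sesn2* (0.51), and *Cth* was at −0.17.

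Enzymes that use the substrates of these carriers changed in both directions. Of 20 genes with a row, 4 were higher, 7 lower and 9 not past the threshold. This stood against 21.5% higher and 21.6% lower among all genes tested. *Nos2* had no row. *Glul*, which makes glutamine, went from 28859.6 ± 3700.2 normalized counts in controls to 17885.0 ± 973.8 (log2 fold change −0.68, adjusted p by limma = 0.000102). For arginine, *Arg2*, the mitochondrial arginase, had a log2 fold change of 0.96 and *Arg1*, the cytosolic one, of −0.71. *Oat*, which acts on ornithine, was at 0.22 and *Odc1*, which makes putrescine, at −0.56. *Got1*, which makes aspartate, rose by 0.61, and *Bcat1*, which transaminates branched-chain amino acids, had a log2 fold change of −2.24 from 34.2 ± 12.2 normalized counts in controls. Under the date term 1 gene of the list was lower, *Glul*, and 0 higher (limma, with 4 higher at an unadjusted p under 0.05), against 4.54% and 4.24% of all genes tested.

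**Figure D5:**
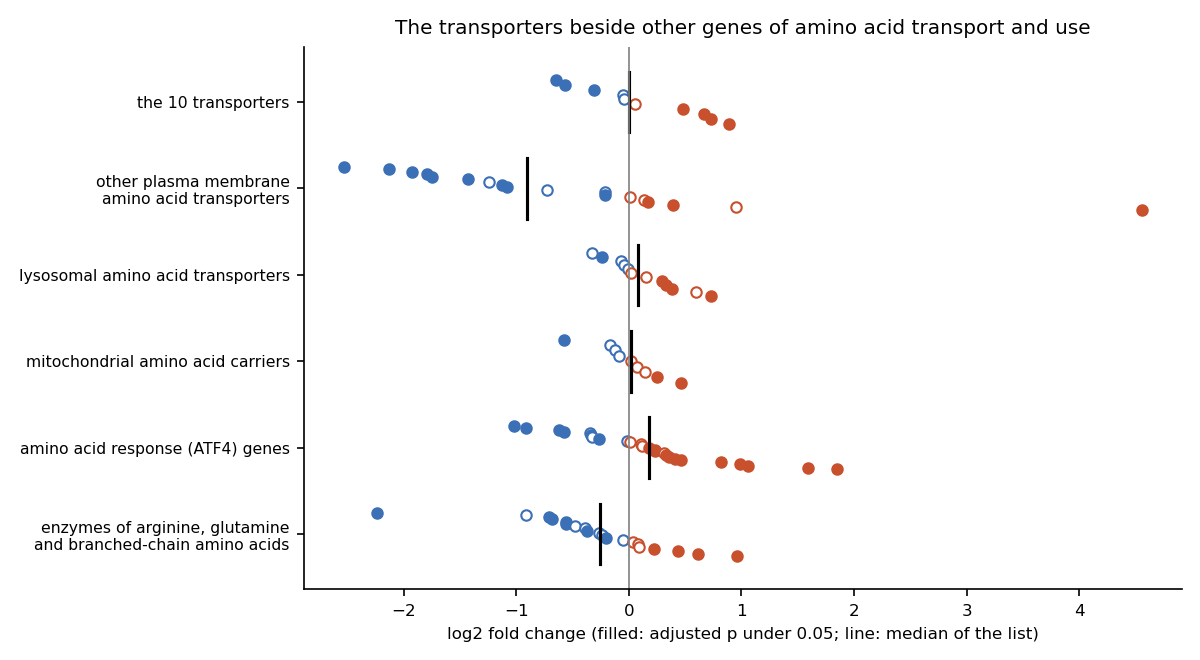
Log2 fold change of each gene with a value in the 10 transporters and 5 lists of related genes, in *Mrc1Cre Xpr1fl/fl* against Xpr1fl/fl macrophages. Filled points have an adjusted p under 0.05 and black lines are list medians. The other plasma membrane carriers have a median of −0.91, with *Slc7a11* far to the right, and the 10 transporters lie on both sides of 0.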

How the data were processed

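The authors sorted macrophages from E15.5 livers, made libraries from 45 ng of total RNA with a stranded mRNA kit, ran FastQC on the reads, estimated transcript abundance by salmon against GRCm39 and summed it to genes through tximport. What was deposited is a normalized signal per gene, that is, counts divided by the authors' DESeq2 normalization factors. Tool versions and the low-count filter are not given in the sources used here. Totals per sample were 26942921 to 28309443, which the normalization sets, and absolute depth is unknown. Of values under 10, 26.5% to 49.7% per sample lay near a whole multiple of their best spacing (within 0.05 of it, where 10% would by chance), so whole reads were not recovered and no count test was run. Columns were matched to samples by name, with 0 left over.

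Symbols and GRCm39 coordinates came from GENCODE M39, which named 13698 genes. Genes that reached 10 normalized counts in 4 or more samples were tested as log2(normalized count + 1), a scale that understates changes of low values, with limma 3.58.1 (lmFit, eBayes with trend) in R 4.3.3. P-values were adjusted by Benjamini-Hochberg with a threshold of 0.05. The fit was first tested on simulated data. Ratios within samples were tested by exact permutation, two-sided. Alternatives were pseudocounts of 0.5 and 10, scaling to the 75th percentile, no filter or one of 50 normalized counts, array weights, quantile normalization, a replicate block, the date as a term, and leaving out each sample. For the named genes of the lists these were added after seeing the data.

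The members, lists and alternatives were chosen with earlier results of these data known. Genes named were all members, *Slc3a2*, *Xpr1*, up to 4 higher and 4 lower genes per list by fold change with values, and the 3 genes most like the member with the largest rise and fall. For the enzymes, 1 gene that the rule names is not reported here. *Adgre1*, *Csf1r*, *Mertk*, the called macrophage markers, *Cdh5*, *Atf4*, *Atf5*, *Sesn2* and the other lower plasma membrane carriers were named after their values were seen. The same holds for the motifs searched. Correlations between samples were 0.947 to 0.986. None was taken for a repeat of another. Figures were drawn with matplotlib 3.10.9.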

Additional observations from a re-analysis of the deposited data

Results flagged for a closer look

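Extreme samples were looked for within each genotype, in 32 groups of 4 or 5 samples (the 10 transporters, *Slc3a2* and the 5 ratios), of which chance sets about 1 in 20 apart. A sample stood apart in 1 group. *Slc38a1* had 3688.8 normalized counts in *Mrc1Cre Xpr1fl/fl* sample 5, the sample that shares its date with controls, against 4360.4 to 4574.6 in the other samples of its genotype. Without it the log2 fold change of *Slc38a1* was 0.10, and it did not pass there either.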

How the results depend on the processing

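The date as a term moved most results, since it leaves *Mrc1Cre Xpr1fl/fl* sample 5 against 3 controls. That fit called 4.24% of all genes tested higher and 4.54% lower, against 21.5% and 21.6% without the date. It left 1 member higher and 1 lower, 1 and 3 of the other plasma membrane carriers, 1 and 0 of the lysosomal carriers, 1 and 0 of the mitochondrial carriers (0 lower at an unadjusted p under 0.05 in limma), 3 and 0 of the amino acid response genes, and 0 and 1 of the enzymes. The ratio differences *Slc7a6*/*Slc7a7* (0.82) and *Slc1a4*/*Slc1a5* (0.59) then did not pass, and the sign of *Slc7a5* (0.07) and *Slc38a1* (−0.12) turned. Scaling to the 75th percentile gave 2 lower lysosomal carriers and 1 higher and 2 lower mitochondrial carriers, with *Slc38a1* at −0.03. Quantile normalization gave 3 lower amino acid response genes, with *Slc38a1* at −0.07, and exchanged *Slc7a2* (−0.49, limma adjusted p = 0.107) for *Slc7a7* among the lower members. With any 1 sample omitted, 3 to 4 members were higher and 2 to 3 lower, lysosomal carriers lower were 0 to 1, the *Slc7a6*/*Slc7a7* difference was 0.79 to 1.13 and *Slc7a5* was −0.12 to 0.05. With merged exon lengths, the highest member was 71.2 times the lowest in controls. The cause of these changes was not tested. The pseudocounts, the filters and array weights changed no call on a member, but with array weights *Slc3a2* did not pass (−0.19, limma adjusted p = 0.05).

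Replicate numbers did not pair the samples. Same-numbered deviations correlated at −0.0333, 0.147, −0.0113 and −0.0313, and 3 of 8 samples correlated best with their own number. Only *Mrc1Cre Xpr1fl/fl* has a replicate number 5, so the block takes that sample out of the genotype comparison. The log2 fold changes then equal those without it, such as 0.74 for *Slc7a1* and −0.67 for *Slc1a5*. With the replicate block, 3146 genes were higher and 3080 lower, 3 members were higher and 3 lower, the *Slc7a5*/*Slc7a8* difference was 0.23 and did not pass, and *Slc1a4* was at 0.48 (limma adjusted p = 0.0569).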
